A study of Mus musculus with 6 samples.

Results

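Skeletal stem cells and their stromal progeny are commonly sorted with antibodies against a small set of surface antigens, and the transcripts of these antigens were examined here in Grem1+ and Grem1- bone marrow cells. The 10 genes were Thy1, Eng, Cd200, Ly6a, Mcam, Nt5e, Enpep, Alcam, Nes and Cd44. They were read through the probe sets whose platform annotation gave exactly 1 gene symbol and that symbol was one of the 10. This gave 21 probe sets of 9 genes, out of 34945 such probe sets of 18193 genes on the array. For Ly6a, the gene of the Sca-1 antigen, 0 probe sets met this condition, and it was not analysed here. Alcam had 5 probe sets, Cd44 had 4, Nt5e and Nes had 3 each, Eng had 2, and Cd200, Enpep, Mcam and Thy1 had 1 each.

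The 6 arrays came from bone marrow of 3 Grem1;TdTomato mice on a C57BL/6J background, 6 to 8 weeks old, which all received tamoxifen by mouth. The Grem1+ group (3 arrays) is described in the labels only as sorted for Grem1, which encodes gremlin 1, an extracellular inhibitor of BMP ligands. The Grem1- group (3 arrays) was non-recombined and negative for CD45, CD31 and Ter-119, and the labels give that gate for this group alone. Both fractions came from the same mice, so each Grem1+ array has a Grem1- partner. The labels do not say which promoter or recombinase drives the reporter, or how many cells entered each array. In such bulk samples, fewer cells of a type and less RNA per cell cannot be told apart.

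As background, no single one of these antigens defines a skeletal stem cell. In mouse sorting schemes CD200 is used as a positive marker of the stem cell, while Thy-1, endoglin (CD105) and the antigen encoded by Enpep mark progenitors and stroma further along. Sca-1, CD73 (Nt5e), CD146 (Mcam), CD166 (Alcam), CD44 and nestin come from definitions of mesenchymal stromal cells in culture or around vessels. Several are not restricted to the skeleton, since CD44 is carried by most leukocytes, the Enpep antigen by early B cells, and endoglin and CD146 by endothelium.

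The arrays were first checked against their labels. Xist, which silences an X chromosome in female cells, stood at 11.04 in the Grem1- and 10.60 in the Grem1+ fraction of mouse 3, where no other array exceeded 2.99, although every mouse is labelled male, so called members are also given without mouse 3. Grem1 itself stood at 3.69, 3.75 and 3.70 in Grem1- and at 4.49, 4.14 and 8.61 in Grem1+ and was not past the threshold (limma adjusted p = 0.245). The 10 pan-haematopoietic genes, which include the CD45 gene Ptprc, were above log2 4 on every Grem1- array despite its gate. On the Grem1+ arrays of mice 1, 2 and 3, 10, 7 and 9 of them were above log2 4. In Grem1+ 7 of the 10 were lower (median difference -3.12), and Ptprc was not among these 7. It stood at 12.13, 11.78 and 12.37 in Grem1- and at 7.29, 9.61 and 10.56 in Grem1+ (limma adjusted p = 0.0603). The other probe set of Ptprc differed by -5.67 and was called. Of 10 chondrocyte genes 9 were higher (median 3.71), and of 8 osteoblast genes 5 were higher (median 3.28). Among the control probe sets, Gapdh signal near the 3′ end exceeded that near the 5′ end, which can be a sign of shortened RNA but is not one by itself. The excess was 2.66 ± 0.34 in the Grem1- arrays and 3.58 ± 0.51 in the Grem1+ arrays (log2, SD, n = 3). This excess for Gapdh was larger in Grem1+ in 3 of 3 mice. The same measure for actin ran the other way, at 0.16 ± 0.02 in Grem1- and 0.09 ± 0.11 in Grem1+, and was lower in Grem1+ in 3 of 3 mice. The actin change was small in mouse 1 (0.172 to 0.166) and mouse 3 (0.147 to 0.138) and larger in mouse 2 (0.173 to -0.031). These shifts stand beside all member values, and their part in them was not tested.

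Cd200 and Nt5e were higher in Grem1+, Alcam was lower, and Eng, Mcam and Nes stayed near or below the limit of measurement. Of the 21 probe sets, 14 probe sets of 6 genes had a log2 value above 4 on at least 3 of the 6 arrays and were tested. Among these 14, 2 were higher (Cd200 and 1 of Nt5e) and 3 were lower (all of Alcam) in Grem1+ at an adjusted p under 0.05 in limma, and 9 were not past the threshold. Over all 18157 tested probe sets 17.8% were called, 10.1% higher and 7.76% lower. In 7 of the 14 the groups did not overlap, and 42% of all tested probe sets had that property. With each gene at its passing probe set of highest mean, the median difference of the 6 genes was -0.58 on the log2 scale beside 0.04 over all 10151 genes. This median lies between the differences of Thy1 (-0.98) and Cd44 1423760_at (-0.18). The Thy1 difference came to -0.22 once values below log2 4 were raised to 4. The counts and the median leave out Eng, Mcam and Nes, whose probe sets did not pass. Dropping any 1 mouse from the blocked fit ended every call, of members and of all other probe sets, so dependence on a mouse is given from fits with no replicate block.

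The sequences just before the annotated starts of Cd200, Nt5e and Alcam are shown because these are the 3 members with a called probe set. They are RefSeq's (GRCm38.p6), 250 bases each, written 5′ to 3′ on the strand of the gene, and capitals mark GC boxes, the letters GGGCGG or CCGCCC.
Cd200, chr16:45409054-45409303, minus strand: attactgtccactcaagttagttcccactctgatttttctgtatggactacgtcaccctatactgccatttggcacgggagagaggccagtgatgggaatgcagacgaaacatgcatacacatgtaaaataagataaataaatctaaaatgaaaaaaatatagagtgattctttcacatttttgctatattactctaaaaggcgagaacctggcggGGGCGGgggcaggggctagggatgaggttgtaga
Nt5e, chr9:88327359-88327608, plus strand: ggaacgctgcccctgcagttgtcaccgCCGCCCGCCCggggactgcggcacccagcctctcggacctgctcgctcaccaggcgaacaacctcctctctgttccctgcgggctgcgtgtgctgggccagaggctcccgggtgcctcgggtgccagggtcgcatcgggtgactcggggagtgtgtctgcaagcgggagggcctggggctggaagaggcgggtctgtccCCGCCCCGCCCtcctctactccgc
Alcam, chr16:52453082-52453331, minus strand: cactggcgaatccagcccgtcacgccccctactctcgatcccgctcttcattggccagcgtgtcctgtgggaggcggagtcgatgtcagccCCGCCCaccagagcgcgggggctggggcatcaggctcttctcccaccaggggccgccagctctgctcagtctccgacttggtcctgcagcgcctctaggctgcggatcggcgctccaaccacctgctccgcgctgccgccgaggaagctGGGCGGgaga
The Cd200 window had 1 GC box, the Nt5e window 4 and the Alcam window 2, where neighbouring matches can overlap. RefSeq gave 32851 promoters, and 32.7% of them held at least 1 GC box in this window. The Cd200 window was 42.4% G or C with 6 CpG, the Nt5e window 72% with 21 and the Alcam window 69.2% with 22, against a median of 52.4% G or C over all promoters. None of the 3 windows held, on either strand, a TATA box (TATAAA, in 12.4% of all promoters), a RUNX motif (TGTGGT, in 14%) or a SOX motif (ACAAAG, in 16.5%). The promoters of 8 of the 10 genes were in the table.

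**Figure D1:**
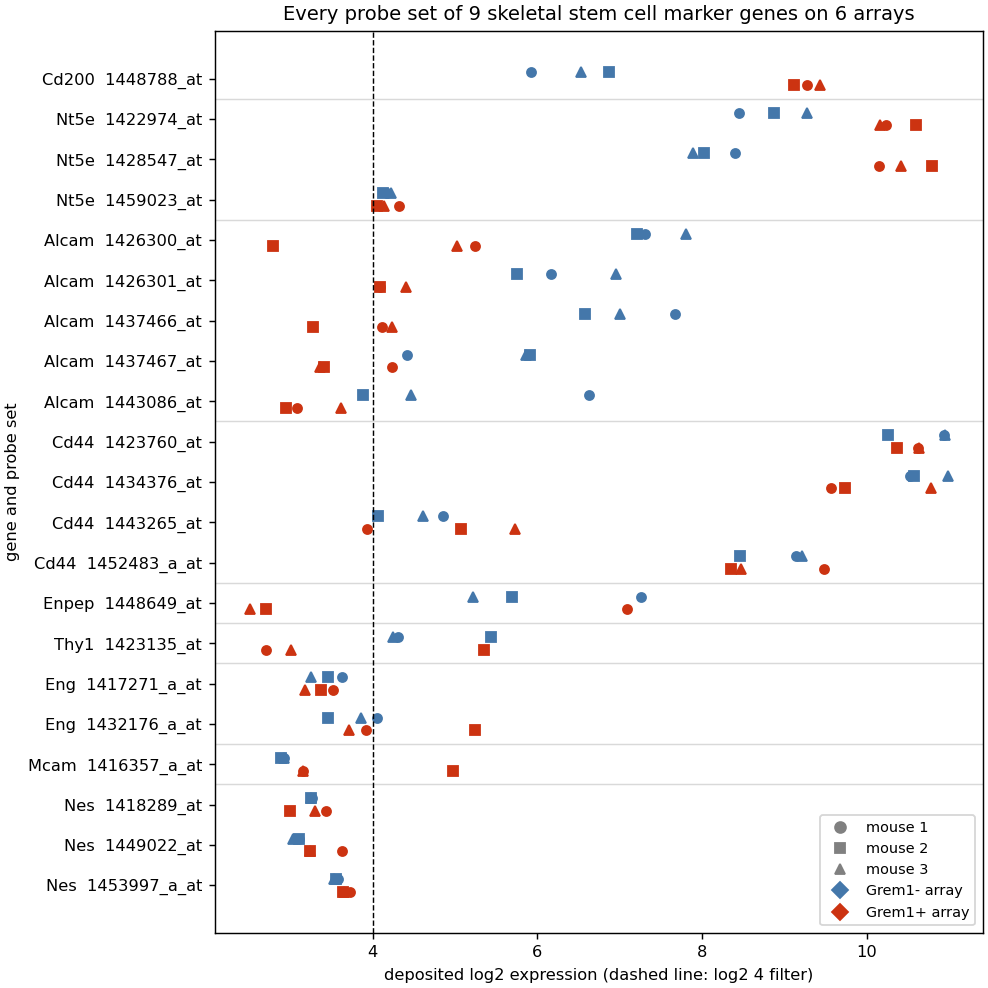
Deposited log2 expression (horizontal axis) of each of the 21 probe sets on every array, with Grem1- in blue and Grem1+ in red and the mouse given by the symbol. The 3 Grem1+ arrays of Cd200 lie between 9.12 and 9.43, above all Grem1- arrays, while Nes lies below log2 4 (dashed line) on all 6 arrays.

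Cd200 encodes an immunoglobulin superfamily glycoprotein that engages an inhibitory receptor on myeloid cells. Its single probe set stood at 5.93, 6.88 and 6.54 in Grem1- and at 9.28, 9.12 and 9.43 in Grem1+ of mice 1, 2 and 3 (log2 levels). All Grem1+ arrays were above all Grem1- arrays, and the Grem1+ arrays were close to each other. The means were 6.45 ± 0.48 and 9.28 ± 0.16 (SD, n = 3), and the difference of 2.83 (SE 0.35), a 7.11-fold rise, passed the threshold (limma adjusted p = 0.0174). Without mouse 3 the difference was 2.80, and with no replicate block the call held whichever mouse was dropped.

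Nt5e encodes CD73, a GPI-anchored enzyme that turns extracellular AMP into adenosine. The probe set 1428547_at stood at 8.40, 8.02 and 7.89 in Grem1- and at 10.15, 10.79 and 10.42 in Grem1+. The groups were apart, and the difference of 2.35 (SE 0.35), or 5.08-fold, passed (limma adjusted p = 0.0228). The probe set 1422974_at stood at 8.45, 8.88 and 9.28 in Grem1- and at 10.23, 10.60 and 10.17 in Grem1+. Here too the groups were apart and each Grem1+ array was above its partner, but the difference of 1.46 (SE 0.34) missed the threshold (limma adjusted p = 0.0545). It passed in 3 of 14 alternatives. These were 1 probe set a gene (adjusted p = 0.0487), the stricter filter (adjusted p = 0.0407) and no replicate block (adjusted p = 0.0222). It missed with no filter, quantile or median scaling, the floor at log2 4, and without _s_at, _x_at and _a_at probe sets. It also missed whichever mouse was left out, with or without the block. The highest adjusted p in limma was 0.181, without mouse 2 in the blocked fit. The third probe set, 1459023_at, lay between 4.06 and 4.32 on all 6 arrays, with a difference of -0.0037 (95% interval -0.76 to 0.75). Probe sets of 1 gene read the same RNA sample and are not independent of each other. Mouse 3 had the smallest difference on 1422974_at, 0.89 against 1.78 and 1.72, and 1428547_at without mouse 3 and the block differed by 2.26 and lost its call (adjusted p = 0.0516).

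Alcam encodes CD166, an immunoglobulin superfamily adhesion molecule that binds itself and the lymphocyte receptor CD6. It is also made by leukocytes. On all 5 of its probe sets every Grem1+ array was below every Grem1- array. The probe set 1437466_at stood at 7.67, 6.58 and 7.01 in Grem1- and at 4.12, 3.28 and 4.23 in Grem1+. Its difference of -3.21 (SE 0.32) passed the threshold (limma adjusted p = 0.0123) and came to -2.97 once dim values were raised to log2 4. The probe set 1426300_at stood at 7.31, 7.21 and 7.81 and at 5.25, 2.80 and 5.03. This is a difference of -3.09 (SE 0.55), with an adjusted p of 0.0321 in limma, and mouse 2 had the lowest Grem1+ value. The call was lost without the filter on dim probe sets (adjusted p = 0.0800).

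The probe set 1426301_at, which the annotation ties to the same source transcript as 1426300_at, stood at 6.17, 5.76 and 6.96 in Grem1- and at 4.08, 4.09 and 4.40 in Grem1+. It differed by -2.10 (SE 0.32), with an adjusted p of 0.0249 in limma. The fourth, 1437467_at, stood at 4.42, 5.91 and 5.87 and at 4.24, 3.41 and 3.36, so that mouse 1 hardly differed, and its difference of -1.73 (SE 0.59) was not past the threshold (adjusted p = 0.124). The fifth, 1443086_at, was above log2 4 on 2 arrays and was not tested. It stood at 6.63, 3.88 and 4.47 in Grem1- and at 3.08, 2.95 and 3.61 in Grem1+. Without mouse 3 the called probe sets differed by -3.42, -3.24 and -1.88 in the order given. In fits with no replicate block 1437466_at kept its call whichever mouse was dropped. The call of 1426300_at was lost without mouse 1 (adjusted p = 0.0701) or mouse 3 (adjusted p = 0.0994), as was that of 1426301_at (adjusted p = 0.0838 and 0.0594).

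**Figure D2:**
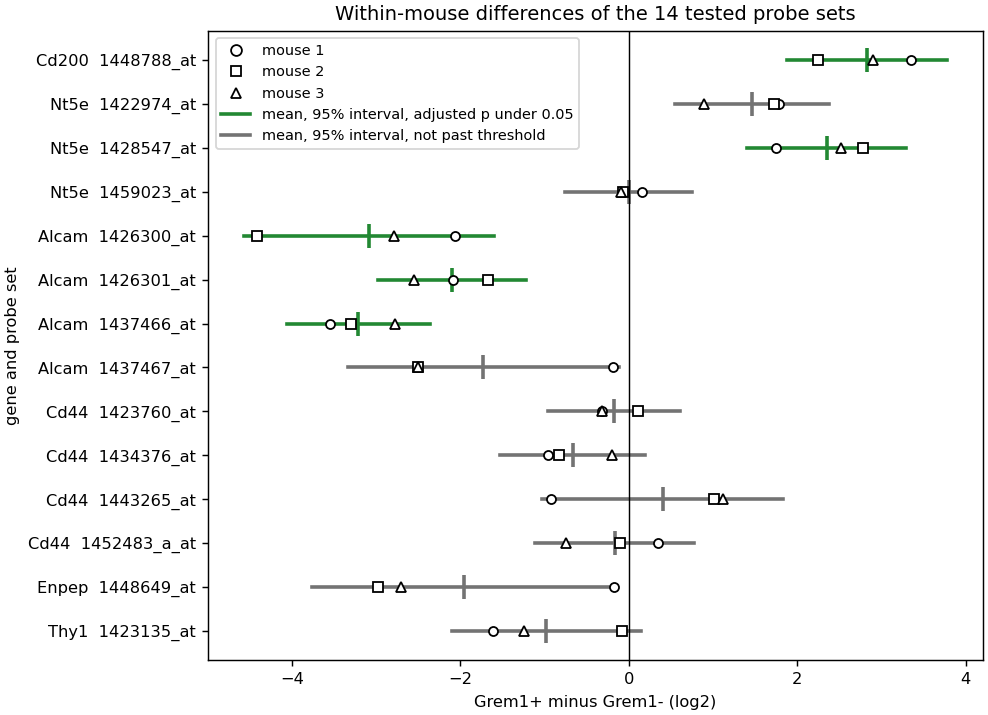
Grem1+ minus Grem1- difference (log2, horizontal axis) of the 14 tested probe sets, with open symbols for each mouse, a tick for the mean and a bar for the 95% interval of the limma fit, green where the adjusted p was under 0.05. The Cd200 differences lie between 2.24 and 3.35, those of Alcam 1437466_at between -3.55 and -2.78, and the Cd44 bars all cross 0.

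Cd44 encodes the main surface receptor for hyaluronan, and it was not past the threshold on any of its 4 probe sets. The probe set 1423760_at stood at 10.94, 10.26 and 10.95 in Grem1- and at 10.62, 10.37 and 10.63 in Grem1+. The groups overlapped, and the difference of -0.18 had a 95% interval from -0.96 to 0.61 (limma adjusted p = 0.722). The probe set 1434376_at was lower in Grem1+ in each mouse, at 10.53, 10.57 and 10.98 against 9.56, 9.74 and 10.79, with a difference of -0.66 (95% interval -1.53 to 0.20, adjusted p = 0.227 in limma). The probe set 1452483_a_at stood at 9.15, 8.46 and 9.21 and at 9.49, 8.35 and 8.47, a difference of -0.17 that turned to 0.12 without mouse 3. The probe set 1443265_at, at 4.85, 4.07 and 4.61 and at 3.93, 5.08 and 5.73, had differences of opposite sign in mouse 1 and in mice 2 and 3, with a 95% interval from -1.03 to 1.83. Cd44 was thus measured well above log2 4 on 3 probe sets in both fractions of every mouse.

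Enpep encodes aminopeptidase A, a membrane enzyme that trims angiotensin II and is also the antigen of early B cells named above. It stood at 7.26, 5.69 and 5.21 in Grem1- and at 7.08, 2.71 and 2.51 in Grem1+. Mouse 1 was high in both fractions, whereas mice 2 and 3 were dim in Grem1+. The mean difference of -1.96 (SE 0.67) was not past the threshold (limma adjusted p = 0.123), and it came to -1.03 once dim values were raised to log2 4. Without mouse 1 and the block it was -2.84 (adjusted p = 0.0267 in limma), and this was the only 1 of 13 alternatives in which Enpep passed. The same fit gave an adjusted p of 0.655 without mouse 2 and 0.593 without mouse 3. With all mice and no block it was 0.337, and without mouse 1 in the blocked fit 0.0584. Markers of B precursors moved with the groups on the same arrays: of 9 genes with a probe set, 7 to 9 were above log2 4 on each Grem1- array and 1 or 2 on each Grem1+ array. Their summed level was 10.86 to 10.99 in Grem1- and 6.93 to 7.70 in Grem1+ (log2 of the summed linear values), with the lowest value on the Grem1+ array of mouse 1, where Enpep was high. Vpreb1, a surrogate light chain, was at least 65.7-fold lower (limma adjusted p = 0.00989) and dim in Grem1+ of each mouse. The part of B precursors in the Enpep values was not tested.

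Thy1 encodes a GPI-anchored glycoprotein of T cells, neurons and stromal progenitors. It stood at 4.31, 5.44 and 4.25 in Grem1- and at 2.71, 5.35 and 3.01 in Grem1+. The fractions of mouse 2 were alike, and in mice 1 and 3 the Grem1+ array was dim. The difference of -0.98 (SE 0.42) was not past the threshold (limma adjusted p = 0.185), and it came to -0.22 once dim values were raised to log2 4. Of 8 T and NK cell markers with a probe set, 3 or 4 were above log2 4 on each Grem1- array and 1 or 2 on each Grem1+ array. In limma 0 of the 3 tested were called, 1 had an unadjusted p under 0.05, and their median difference was -0.15.

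Eng, Mcam and Nes gave no tested probe set. Eng encodes the coreceptor endoglin of the TGF-beta family. Its probe set 1417271_a_at was below log2 4 on all arrays, from 3.18 to 3.63. Its other probe set, 1432176_a_at, stood at 4.05, 3.46 and 3.86 in Grem1- and at 3.92, 5.25 and 3.71 in Grem1+. Only mice 1 and 2 each had 1 array above log2 4, and the fractions overlapped.

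Mcam encodes CD146, an adhesion molecule of pericytes and endothelium. It stood at 2.93, 2.88 and 2.92 in Grem1- and at 3.16, 4.97 and 3.16 in Grem1+, so that 1 array, that of mouse 2, was above log2 4. Every Grem1+ array was above every Grem1- array, and with no filter the difference was 0.85 (limma adjusted p = 0.428). Nes encodes nestin, an intermediate filament protein used to mark perivascular stroma. Its 3 probe sets lay between 3.00 and 3.72 on all 6 arrays, below the limit used here. With no filter they differed by 0.28 (1449022_at), 0.12 (1453997_a_at) and -0.016 (1418289_at), with an adjusted p of 0.420, 0.676 and 0.970 in limma. On 1449022_at and 1453997_a_at every Grem1+ array was above every Grem1- array, though all values were dim. Markers of endothelium were also low: of 10 genes, 4 to 6 were above log2 4 on each Grem1- array and 1 to 3 on each Grem1+ array. In limma 0 of the 4 tested were called, and 2 had an unadjusted p under 0.05. The summed endothelial level was 7.24 to 8.45 in Grem1- and 6.70 to 7.41 in Grem1+. That of the Grem1+ array of mouse 2, which held the highest Eng and Mcam values, was 6.74, with 1 of 10 endothelial genes above log2 4. The part of endothelium in the Eng and Mcam values was not tested.

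The molecules that these antigens work with were examined as lists, in which a gene stands as its passing probe set with the highest mean and 18.9% of all genes were called (11.1% higher, 7.81% lower). For the adenosine pathway 6 of 10 listed genes had a named probe set and 3 were tested, of which 1 was higher and 2 were lower. Entpd1, the CD39 enzyme that makes the AMP used by CD73, stood at 8.69, 8.40 and 9.35 in Grem1- and at 4.43, 6.93 and 4.46 in Grem1+, a difference of -3.54 (SE 0.77, limma adjusted p = 0.0487). Ada, adenosine deaminase, differed by -2.44 (SE 0.38), or -2.01 with dim values raised to log2 4. Adk, the kinase that returns adenosine to AMP inside the cell, was higher by 2.64 (SE 0.42), and 4 of its 5 passing probe sets were called. Entpd1 and Ada were thus lower where Nt5e 1428547_at was higher. At 1422974_at, the probe set that stands for the gene, Nt5e was not past the threshold (limma adjusted p = 0.0545). The groups did not overlap for Entpd1, Ada or Adk, a property of 42% of all tested probe sets. Pan-haematopoietic genes had a median difference of -3.12 on the same arrays, and the part of blood cells in these values was not tested. The Entpd1 call rested on 1 of 3 probe sets and was lost under median centring (adjusted p = 0.0504), with the floor at log2 4 (adjusted p = 0.0518) and with no filter (adjusted p = 0.121). Ada lost its call with no replicate block (adjusted p = 0.0594) and with no filter (adjusted p = 0.0539), and Adk with no filter (adjusted p = 0.0601). In fits with no replicate block all 3 calls were lost without mouse 1 or mouse 3 and kept without mouse 2. The adjusted p without mouse 1 and without mouse 3 was 0.112 and 0.130 for Entpd1, 0.144 and 0.270 for Ada, and 0.0622 and 0.0601 for Adk.

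**Figure D3:**
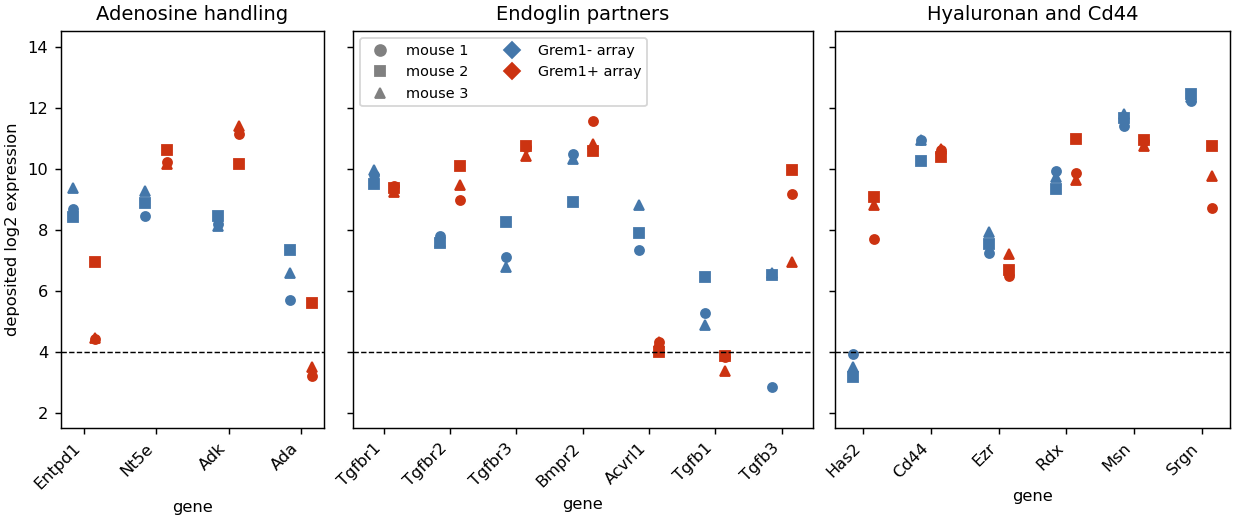
Deposited log2 expression (vertical axis) on each array, Grem1- in blue and Grem1+ in red with the mouse given by the symbol, for genes of adenosine handling, partners of endoglin, and the hyaluronan system with Cd44. Nt5e is shown at 1422974_at. Levels can be compared between groups within a gene and not between genes; Has2 is below log2 4 (dashed line) on all Grem1- arrays and at 7.70 to 9.06 on the Grem1+ arrays.

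For the TGF-beta superfamily molecules that share ligands or complexes with endoglin, 7 of 10 genes were tested, 2 were higher and 2 were lower, with a median difference of 1.08, which was 0.020 with no filter. Tgfbr3, the coreceptor betaglycan, stood at 7.11, 8.24 and 6.76 in Grem1- and at 10.71, 10.75 and 10.43 in Grem1+, higher by 3.26 (SE 0.38, limma adjusted p = 0.0155) on the probe set that stands for the gene, and its other probe set was higher by 3.35 (limma adjusted p = 0.0133). Tgfbr2, the type II receptor of TGF-beta, was higher by 1.87 (SE 0.38). Acvrl1, the type I receptor that pairs with endoglin in endothelium, stood at 7.33, 7.90 and 8.82 and at 4.31, 3.99 and 4.32, a difference of -3.81 (SE 0.40, limma adjusted p = 0.0135). The ligand Tgfb1 was at least 2.89-fold lower, with every Grem1+ array below log2 4. Without the filter Tgfbr2 (adjusted p = 0.0788) and Tgfb1 (adjusted p = 0.0739) lost their calls, and so did Tgfb1 with the floor at log2 4 (adjusted p = 0.0803). In the fits with no replicate block, Tgfb1 was lost whichever mouse was dropped (adjusted p = 0.126, 0.0875 and 0.0941 without mouse 1, 2 and 3), Tgfbr2 without mouse 2 (0.0764) or mouse 3 (0.108), and Tgfbr3 without mouse 1 (0.0510), while Acvrl1 kept its call.

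Around Cd44, 8 of 10 genes of hyaluronan synthesis and of its binding and cytoskeletal partners were tested, with 1 higher, 1 lower and a median of -0.36. Has2, a hyaluronan synthase, was at 3.93, 3.17 and 3.49 in Grem1- and at 7.70, 9.06 and 8.81 in Grem1+, at least 22.9-fold higher (limma adjusted p = 0.0131). Srgn, serglycin, a granule proteoglycan of blood cells that binds CD44, differed by -2.60 (SE 0.45), and its call was lost with no filter (adjusted p = 0.0701) and, with no replicate block, without mouse 1 (adjusted p = 0.0629) or mouse 3 (adjusted p = 0.113). The Has2 call held whichever mouse was dropped from that fit. Beside it, the granulocyte markers summed to 14.55 to 14.60 on the Grem1- arrays and 11.71 to 13.51 on the Grem1+ arrays, and their part in the Srgn value was not tested.

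Among intermediate filament genes related to Nes, 4 of 6 were tested, with 2 higher, 0 lower and a median of 1.01. This median was 0.28 with no filter and -0.15 without probe sets whose names end in _s_at, _x_at or _a_at. Synm, synemin, which assembles with other filament proteins of muscle and glia, was higher by 3.65 (SE 0.54, limma adjusted p = 0.0231), at 4.84, 5.83 and 4.45 in Grem1- and 9.87, 8.76 and 7.46 in Grem1+. Lmna, lamin A/C of the nuclear envelope, was higher by 1.72 (SE 0.30), on 3 of 5 probe sets. The other tested genes were Vim, with a difference of 0.30, and Lmnb1, with -2.53 (SE 0.64, limma adjusted p = 0.0661). The other probe set of Lmnb1, not the one that stands for the gene here, differed by -3.54 and was called. Synm lost its call with no filter (adjusted p = 0.0617) and was called on 1 of 2 probe sets. With no replicate block Synm was also lost without mouse 1 (adjusted p = 0.0754) or mouse 2 (0.0736), and Lmna whichever mouse was dropped (0.0853, 0.0581 and 0.0721 without mouse 1, 2 and 3). Of 7 genes around Cd200, Alcam and Mcam only Lama4, a laminin chain bound by CD146, was tested, and it was higher by 1.80 (SE 0.30). Its call was lost whichever mouse was dropped from the fit with no replicate block (adjusted p = 0.160, 0.0766 and 0.0692 without mouse 1, 2 and 3). The receptors of CD200 and Cd6 were among the untested 6.

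Of 9 listed peptidases and angiotensin genes related to Enpep, 2 were tested and 0 were called in limma, with 1 at an unadjusted p under 0.05. These were Dpp4, at 6.72, 4.10 and 5.47 in Grem1- and dim in Grem1+ of each mouse (limma adjusted p = 0.0751), and Agt, with a difference of 0.26 (SE 0.29). Of 10 Ly6 family genes, the family of Ly6a, 3 were tested and 0 were called in limma, with 1 at an unadjusted p under 0.05. Ly6e differed by -3.35 (SE 0.88, limma adjusted p = 0.0710), at 9.20, 9.83 and 9.91 in Grem1- and at 3.83, 8.67 and 6.40 in Grem1+. It passed with the stricter filter (adjusted p = 0.0467), and its other probe set, not the one that stands for the gene here, was called (-2.04, limma adjusted p = 0.0317). Ly6d differed by -0.18 (SE 0.28).

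Of 14 other markers used to sort skeletal and stromal progenitors, 11 were tested, 3 were higher, 0 were lower, and the median was 1.43. In limma 6 of the 11 had an unadjusted p under 0.05. Among the uncalled genes Pdgfrb differed by 2.91 (limma adjusted p = 0.0504) and Vcam1 by -2.87 (limma adjusted p = 0.0685). Vcam1 was lower in Grem1+ of each mouse, and its other probe set differed by -1.96. Ngfr differed by -0.02. Itgav, the integrin alpha V chain (CD51) that is combined with CD200 in stem cell sorts, stood at 7.50, 8.28 and 7.42 in Grem1- and at 10.72, 10.38 and 10.54 in Grem1+. The groups were apart and the difference of 2.81 (SE 0.37, limma adjusted p = 0.0186) passed on 3 of its 4 passing probe sets. Cspg4, the NG2 proteoglycan of pericytes and progenitors, was higher by 5.40 (SE 0.51), and Itgb1, the integrin beta 1 chain (CD29), by 1.43 (SE 0.30). Cspg4 was called on 1 of 2 probe sets and Itgb1 on 1 of 5, and Itgb1 lost its call with no filter (adjusted p = 0.0540) and, with no replicate block, whichever mouse was dropped (adjusted p = 0.193, 0.0840 and 0.113 without mouse 1, 2 and 3). Itgav and Cspg4 kept their calls in those fits. The median of this list was 0.90 with no filter, 0.85 without _s_at, _x_at and _a_at probe sets and 2.81 with the stricter filter.

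**Figure D4:**
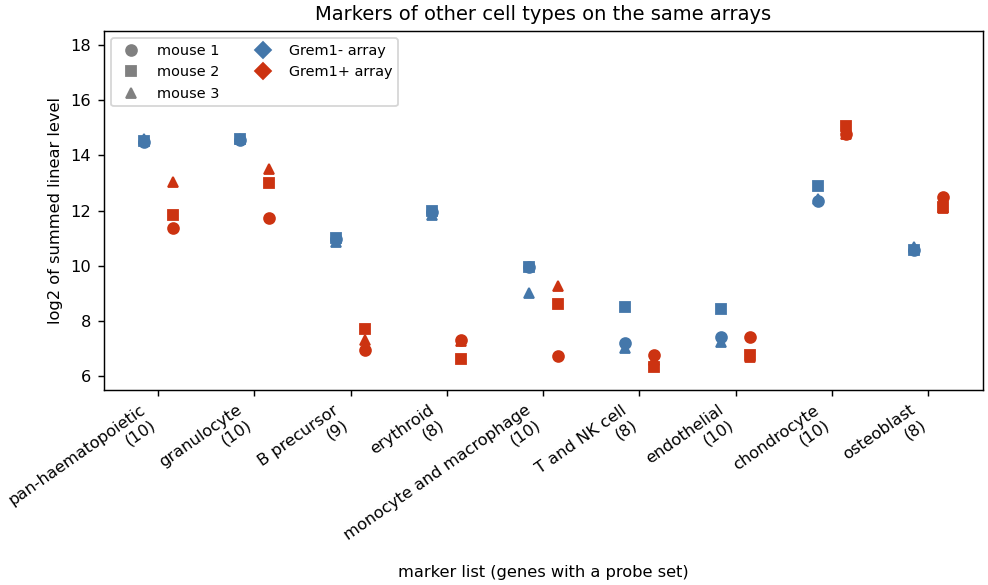
Summed level (log2 of the summed linear values, vertical axis) of marker lists of other cell types on each array, Grem1- in blue and Grem1+ in red, with the number of genes that had a probe set under each name. The pan-haematopoietic, granulocyte, B precursor, erythroid and T and NK cell lists are lower on all 3 Grem1+ arrays, the monocyte and endothelial lists overlap, and the chondrocyte and osteoblast lists are higher on all 3 Grem1+ arrays.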

How the data were processed

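Total RNA of 6 sorted fractions was extracted and amplified with commercial kits for small inputs, per the labels' protocols, and hybridised to Affymetrix arrays. The deposited values are log2 expression per probe set (0.798 to 14.05), normalized by the authors with GCRMA per the submitters' processing notes. Its version is not given in the sources used here. Of 45101 probe sets, 34945 had 1 gene symbol, 932 several, 9160 none here, and 64 were controls.

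Probe sets with 1 symbol and above log2 4 on at least 3 of 6 arrays (18157) were tested two-sided with limma 3.58.1 in R 4.3.3, blocking on mouse, with Benjamini-Hochberg adjustment over all of them at 0.05. The limit of log2 4, below which a value is called dim, was chosen here. Where the lower group was dim on all arrays, the fold is a bound with dim values set to 4. The series design text says that fractions are matched by mouse. Deviations from group means correlated at 0.014, 0.052 and 0.031 between the fractions of mice 1, 2 and 3. The fit was tested on simulated data, and the outcome is not given here. It had 2 residual degrees of freedom for each probe set, to which the variance moderation of limma added 2.28.

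Named were all members, up to 3 called genes of each list (or 2 tested), label checks and the 2 genes most like each member; other genes, such as Tgfb1, were named after their values were seen. Members and lists were chosen with earlier results of these data known. Alternatives were the block, the filter (none, or log2 6), quantile and median scaling, and a floor at log2 4. Others were 1 probe set a gene, no probe sets whose names end in _s_at, _x_at or _a_at, and each mouse left out.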

Additional observations from a re-analysis of the deposited data

How the results depend on the processing

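Of all tested probe sets, 1826 were higher and 1409 lower in Grem1+. These counts were 1095 and 666 with dim probe sets kept, and 1191 and 864 with 1 probe set a gene, which tests fewer probe sets. Leaving out 1 mouse while keeping the block, limma called 0 probe sets in either direction, members included, while 4967 to 5158 had an unadjusted p under 0.05. With no replicate block the counts higher and lower were 1114 and 761 when mouse 1 was dropped, 1176 and 751 for mouse 2, 1122 and 796 for mouse 3, and 2329 and 1876 with all mice. The member probe sets called were 2 higher and 3 lower, and with 1 probe set a gene 1 was lower. Leaving out a mouse gave 0 to 2 higher and 0 to 3 lower members, with 1 and 1 without mouse 3 and the block. In the fits without the block Cd200 and Alcam 1437466_at passed whichever mouse was left out. The cause of these changes was not tested.

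The sign changed for members near 0. Nt5e 1459023_at was 0.017 under quantile normalization, and leaving out a mouse gave -0.081 without mouse 1, 0.031 without mouse 2 and 0.039 without mouse 3. Cd44 1452483_a_at ran from -0.42 to 0.12 with a mouse left out, the latter without mouse 3. Outside the members Vwf, an endothelial marker, ran from -0.19 without mouse 1 to 0.27 without mouse 3. With no replicate block Nt5e 1422974_at gained a call (adjusted p = 0.0222), and no other member call changed. Values near or below log2 4 limit Nes, Eng, Mcam and Thy1.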

Other observations

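Several members differed between the Grem1+ arrays of single mice, which was seen only after their values were known. The Grem1+ array of mouse 2 held the highest Grem1+ value of Thy1 (5.35 against 2.71 and 3.01), of Eng 1432176_a_at (5.25 against 3.92 and 3.71) and of Mcam (4.97 against 3.16 and 3.16). The same array also held the highest Grem1+ values of Entpd1 (6.93) and Ada (5.60). The summed level of the monocyte list was highest in the Grem1+ array of mouse 3, at 9.25 against 6.72 and 8.60 in mice 1 and 2. By genes above log2 4 the monocyte list was highest in mouse 2, with 5 of 10 against 1 in mouse 1 and 4 in mouse 3. In the Grem1+ array of mouse 2 the B precursor genes were above log2 4 for 2 of 9 and the endothelial genes for 1 of 10. The summed B precursor level of that array was the highest in Grem1+, at 7.70 against 6.93 and 7.30 in mice 1 and 3. For Enpep the highest Grem1+ value was that of mouse 1, at 7.08 against 2.71 and 2.51 in the others. These values have no replicate within a mouse.

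The genes whose profile over the 6 arrays lay closest to each member were found by the root mean square difference of values centred on the gene's mean, as a description without a test. For Cd200 these were Vps41 (0.14) and Rcan1 (0.18). For Nt5e 1422974_at they were Map4 (0.11) and Cd9 (0.14), where Cd9, a tetraspanin, stood at 8.14, 8.42 and 8.77 in Grem1- and at 9.74, 10.35 and 10.02 in Grem1+. For Alcam 1426300_at they were Rab44 (0.25) and Tnfrsf1b (0.30), a receptor of tumour necrosis factor. For Cd44 1423760_at they were Atxn10 (0.09) and Pigu (0.09), for Thy1 Atg9a (0.24) and Cacul1 (0.28), and for Enpep Trim34a (0.54) and Mocs1 (0.70). All profiles share the same 6 arrays, and 17.8% of tested probe sets differed between the groups.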
